A study of Mus musculus with 8 samples.

Results

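The genes described here are 6 cathepsins (Ctsb, Ctsd, Ctse, Ctsh, Ctsl and Ctsz), the sulfatase Ids and the protease inhibitor Slpi, 8 of the 8252 genes that single-gene probe sets name on the array. They were taken by symbol, with every probe set that the probe annotation pairs with one of them, which gave 18 probe sets, 11 for the cathepsins and 7 for Ids and Slpi. Ids and Slpi were selected on measured values, since 1 probe set of each had read low in the T-independent germinal centre arrays. They had been noted in TI day 4 against TD day 4, so every comparison of theirs that holds arrays of either group is a description, given with no test. The cathepsins were taken as a family, Ctss apart, by name.

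Each array held RNA of B cells sorted from pooled F1 mice of a QM by C57BL/6 cross (QMxB6). The QM parent strain carries a rearranged immunoglobulin heavy chain gene, and many of its B cells bind the hapten NP. All 3 germinal centre groups were sorted as GL7+ B220+ cells, and resting B cells as GL7- B220+ cells of unimmunised mice, with 2 arrays in each of the 4 groups. For the T-independent response (TI day 4), mice were given 30 µg of NP-Ficoll and taken on day 4, with 4 and 10 mice in the pools. The unprimed T-dependent group (TD day 10) received 50 µg of NP-CGG, NP on chicken gamma-globulin, precipitated in alum with heat-killed B. pertussis, and was taken on day 10, with 6 mice in each pool. The carrier-primed T-dependent group (TD day 4) had been primed with 50 µg of the carrier protein in alum, also with heat-killed B. pertussis. It received 50 µg of soluble NP-CGG 5 weeks later and was taken 4 days after that, with 6 and 9 mice in its pools. The resting pools held 6 and 9 mice. The TD day 10 and TD day 4 groups thus differ in priming and adjuvant as well as in day.

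Lysosomes are acid compartments in which proteases, glycosidases, lipases and sulfatases break down proteins, sugars and lipids that arrive by endocytosis or autophagy. In B cells the same compartments cut antigen taken up through the B cell receptor, and degrade the invariant chain, so that peptides can be loaded on MHC class II. Most cathepsins are cysteine proteases, among them Ctsb, Ctsh, Ctsl and Ctsz, while Ctsd and Ctse are aspartic proteases. Ids removes sulfate groups from heparan and dermatan sulfate, and loss of its human counterpart causes the storage disease Hunter syndrome. Slpi is a small secreted inhibitor of serine proteases such as neutrophil elastase and cathepsin G, and does not belong to the lysosomal enzymes.

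Many lysosomal genes carry in their promoters the letters CACGTG, the core of the site bound by TFEB, a transcription factor that drives lysosomal genes. The RefSeq promoter table (GRCm38.p6, 250 bases before to 50 after the gene start) held 5 of the 8 members, Ctsd, Ctsl, Ctsz, Ids and Slpi. The 4 of these with a measurable signal are shown, all on the minus strand and read 5′ to 3′, with each CACGTG in capitals. The Ctsd window is chr7:142387778-142388077, that of Ctsz chr2:174438990-174439289, that of Ids chrX:70365036-70365335 and that of Slpi chr2:164356458-164356757.
Ctsd: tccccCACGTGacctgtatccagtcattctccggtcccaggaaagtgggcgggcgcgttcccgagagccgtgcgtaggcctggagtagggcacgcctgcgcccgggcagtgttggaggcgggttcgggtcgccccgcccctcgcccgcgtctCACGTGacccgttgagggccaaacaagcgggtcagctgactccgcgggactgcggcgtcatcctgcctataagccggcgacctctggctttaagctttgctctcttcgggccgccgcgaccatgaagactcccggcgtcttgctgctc
Ctsz: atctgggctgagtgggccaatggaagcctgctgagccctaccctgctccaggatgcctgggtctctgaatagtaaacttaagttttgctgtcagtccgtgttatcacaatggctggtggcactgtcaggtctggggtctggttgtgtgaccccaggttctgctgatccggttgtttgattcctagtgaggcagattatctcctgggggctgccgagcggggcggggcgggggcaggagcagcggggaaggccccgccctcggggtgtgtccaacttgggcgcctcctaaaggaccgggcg
Ids: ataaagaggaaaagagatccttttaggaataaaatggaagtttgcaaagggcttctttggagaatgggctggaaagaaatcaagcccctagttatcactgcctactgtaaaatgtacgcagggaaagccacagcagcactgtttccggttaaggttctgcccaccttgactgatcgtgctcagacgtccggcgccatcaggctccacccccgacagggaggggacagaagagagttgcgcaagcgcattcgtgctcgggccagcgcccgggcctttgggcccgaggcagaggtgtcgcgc
Slpi: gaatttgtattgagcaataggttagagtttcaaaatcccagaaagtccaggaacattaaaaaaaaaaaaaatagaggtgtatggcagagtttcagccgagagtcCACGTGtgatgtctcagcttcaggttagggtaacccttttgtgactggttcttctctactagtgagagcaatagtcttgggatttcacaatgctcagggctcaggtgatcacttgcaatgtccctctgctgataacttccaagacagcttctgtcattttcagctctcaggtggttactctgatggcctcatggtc
The Ctsd window holds the letters 2 times and the Slpi window 1 time, and the Ctsz and Ids windows do not hold them. The letters read the same on both strands, and 7.15% of the 32851 promoter windows in the table hold them. Ctsl, whose probe set gave no signal, has the letters 1 time. A match is a description of the letters and not evidence of a site in use.

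Values are intensities on the linear scale of the deposited table. Values under 81, the median of all values, were raised to it before log2 was taken, and 7253 of 12488 probe sets read above 81 on at least 2 arrays and were tested. A group's 2 arrays bound the precision of every value. Of the 18 probe sets of the members, 13 passed this filter. The other 5 did not, namely the 1 probe set of Ctsl, 2 of 4 for Ctsb, 1 of 3 for Ids and 1 of 4 for Slpi. Ctsl, an endopeptidase that trims the invariant chain in mouse thymic epithelium, read between -29 and 23 on all 8 arrays and had no measurable signal. Intensities of different probe sets are not compared with each other. As RNA came from bulk sorted cells, fewer cells of a type and less RNA per cell cannot be told apart.

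Among the cysteine cathepsins, Ctsb had the widest separation of groups. Ctsb, a protease with both endopeptidase and carboxypeptidase activity, read 2406 and 2239 in TI day 4, 873 and 907 in TD day 10, 1406 and 1449 in TD day 4 and 1831 and 2041 in resting B cells at probe set 94831_at. The arrays of the 4 groups did not overlap, in the order TI day 4, resting, TD day 4 and TD day 10 from high to low. Ctsb was 2.61-fold higher in TI day 4 than in TD day 10, at 2322.5 ± 118 against 890 ± 24.0 (SD, n = 2 each), a log2 difference of 1.38 ± 0.15 (SE, limma adjusted p = 0.012). It was 2.17-fold lower in TD day 10 than in resting, at 890 ± 24.0 against 1936 ± 148 (log2 difference -1.12 ± 0.15, adjusted p = 0.0077). These values rest on 1 of the 4 Ctsb probe sets, and 2 of the others were not tested. The remaining one, 92256_at, read above the floor on the resting arrays alone. Its log2 values correlated at 0.24 with those of 94831_at over the 8 arrays (Pearson).

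The neighbours in this order did not pass the test. The log2 difference of Ctsb was 0.26 for TI day 4 minus resting (95% interval -0.10 to 0.63, adjusted p = 0.38) and -0.44 for TD day 4 minus resting (-0.80 to -0.07, adjusted p = 0.14). It was -0.68 for TD day 10 minus TD day 4 (-1.05 to -0.32, adjusted p = 0.51). Between the day 4 groups, TI day 4 minus TD day 4 gave 0.70 ± 0.15 (SE), and the adjusted p of 0.093 missed the threshold. This last difference passed under 3 of 21 alternatives, with adjusted p = 0.026 with a higher floor, 0.045 with a trended and robust prior and 0.043 with array weights. The call for TI day 4 minus TD day 10 was lost, at adjusted p = 0.16 and a log2 difference of 1.31, with the Gapdh 3′ to 5′ ratio as a covariate. It was also lost at adjusted p between 0.059 and 0.086 without either array of TI day 4 or of TD day 10, and at 0.064 and the same log2 difference of 1.38 with only the arrays compared.

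Ctsz, a carboxypeptidase also called cathepsin X, had the same order of group means. Probe set 92633_at read 1082 and 1590 in TI day 4, 566 and 628 in TD day 10, 782 and 743 in TD day 4 and 1081 and 1300 in resting. The TI day 4 and resting arrays overlapped, and both groups lay above both TD groups. Ctsz was 1.99-fold lower in TD day 10 than in resting (log2 difference -0.99 ± 0.23 SE, adjusted p = 0.044). That call held in 7 of 21 alternatives, whose adjusted p lay between 0.027 and 0.18. It was lost, for example, without either array of resting (0.069 and 0.14), of TD day 4 (0.088 each) or of TD day 10 (0.18 and 0.13). The log2 difference of TI day 4 minus TD day 10 was 1.14 ± 0.23 (SE, adjusted p = 0.068), and that of TI day 4 minus TD day 4 was 0.78 ± 0.23 (SE, adjusted p = 0.19). The TI day 4 minus TD day 10 difference passed under 2 of 21 alternatives, at adjusted p = 0.044 with a trended and robust prior and 0.047 with array weights. Across the 8 arrays the log2 values of Ctsb and Ctsz had a Pearson correlation of 0.92, given as a description over arrays that share their groups. The summed intensity of 16 macrophage markers, 9922 and 8560 in TI day 4, 4700 and 5799 in TD day 10, 5417 and 5247 in TD day 4 and 7639 and 7034 in resting, had the same order of group means. Without Apoe that order was lost and resting was highest, while without Hmox1, the brightest marker, it was kept, as given below. The part of these markers in the Ctsb and Ctsz values was not tested.

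Ctsh, an aminopeptidase of the same family, varied less. Probe set 94834_at read 1507 and 1545 in TI day 4, 1270 and 1410 in TD day 10, 1350 and 1402 in TD day 4 and 1684 and 1725 in resting. The resting arrays were the highest and did not overlap any germinal centre array, while the TD groups overlapped. No difference in Ctsh passed, and the widest, TD day 10 minus resting, was -0.35 on the log2 scale (95% interval -0.70 to 0.01, adjusted p = 0.22). It passed under 2 of 21 alternatives, with adjusted p = 0.029 for a floor at the 60th percentile and 0.049 for an ordinary linear model fitted probe set by probe set.

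**Figure D1:**
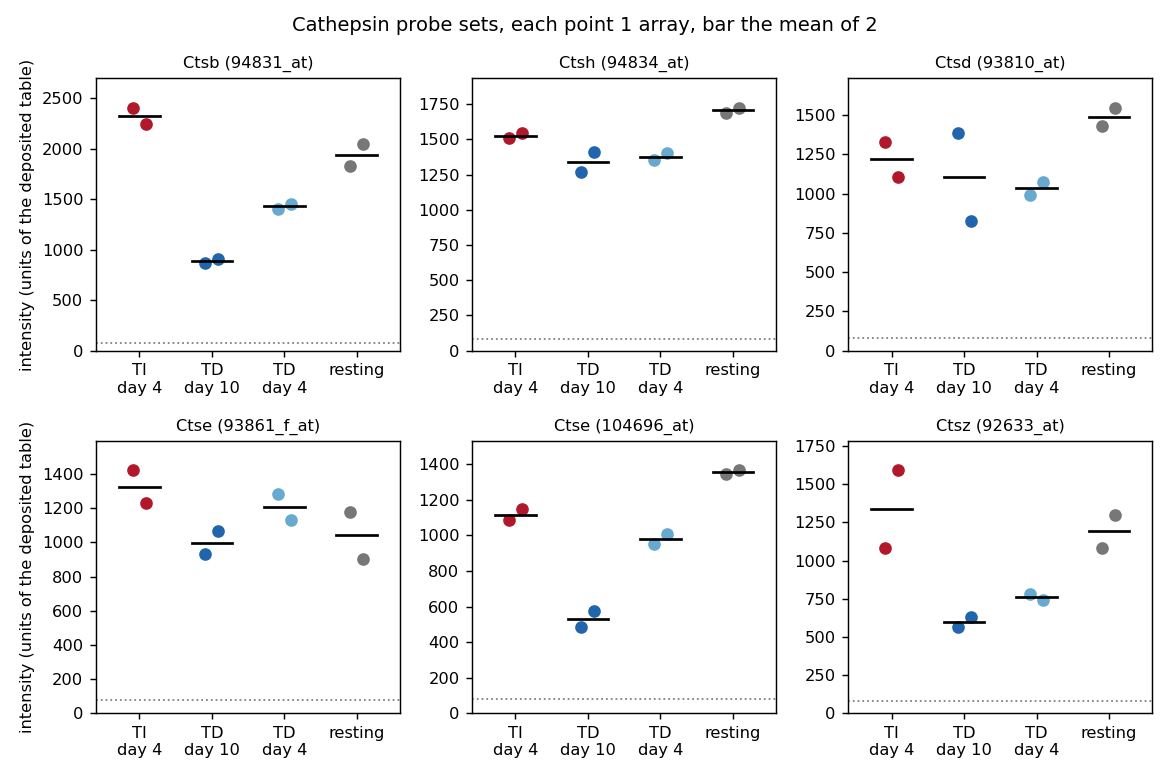
Intensity (vertical axis, deposited units) of 6 cathepsin probe sets in the 4 groups, each point 1 array, each bar the mean of 2 arrays, the dotted line the floor of 81. Ctsb (94831_at), Ctse (104696_at) and Ctsz are lowest in TD day 10, while Ctse at 93861_f_at ranges only from 901 to 1421.

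Of the aspartic cathepsins, Ctse, which in immune cells lies in endosomes more than in lysosomes, followed a related order at 1 of its 3 probe sets. Probe set 104696_at read 1084 and 1149 in TI day 4, 486 and 576 in TD day 10, 954 and 1008 in TD day 4 and 1343 and 1365 in resting. No group overlapped another, and resting was the highest here rather than TI day 4. Ctse was 2.56-fold lower in TD day 10 than in resting, at 531 ± 63.6 against 1354 ± 15.6 (SD, n = 2 each, log2 difference -1.36 ± 0.16 SE, adjusted p = 0.0054). It was 2.11-fold higher in TI day 4 than in TD day 10, at 1116.5 ± 46.0 against 531 ± 63.6 (log2 difference 1.08 ± 0.16 SE, adjusted p = 0.027).

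Among the neighbours, the log2 difference of TD day 10 minus TD day 4 was -0.89 (95% interval -1.27 to -0.51, adjusted p = 0.35). The TI day 4 minus TD day 4 difference of 0.19 (-0.20 to 0.57, adjusted p = 0.71) and the TI day 4 minus resting difference of -0.28 (-0.66 to 0.11, adjusted p = 0.38) did not pass. The higher level in TI day 4 than in TD day 10 held in 12 of 21 alternatives, with adjusted p between 0.016 and 0.24. Among the losses, it failed without either array of TI day 4, TD day 10 or TD day 4, with adjusted p from 0.069 to 0.14. It also failed with only the arrays compared (log2 difference 1.08, adjusted p = 0.096) and with the Gapdh ratio as a covariate (1.02, adjusted p = 0.24). Over all probe sets the calls in this comparison were 0 and 7 in those fits, against 174 as reported.

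The other Ctse probe sets did not follow this order. The annotation pairs 93861_f_at and 93860_i_at with Ctse through a GenBank entry other than that of 104696_at, and the letters f and i in their names are the maker's marks for probes shared within a sequence family and for an incomplete probe set. Probe set 93861_f_at read 1421 and 1231 in TI day 4, 930 and 1066 in TD day 10, 1280 and 1131 in TD day 4 and 1179 and 901 in resting, and none of its differences passed. Its TD day 10 minus resting difference was -0.05 on the log2 scale (95% interval -0.54 to 0.44, adjusted p = 0.92), where 104696_at gave -1.36. Probe set 93860_i_at was under the floor on both resting arrays, read 62 and 382 in TD day 10, of which the first is under the floor too, and none of its differences passed. Over the 8 arrays, the log2 values of 104696_at correlated at 0.34 with 93861_f_at and at -0.19 with 93860_i_at (Pearson). Which of the 3 follows the Ctse transcript cannot be told from intensities alone.

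Ctsd, the main aspartic protease of lysosomes, read 1329 and 1107 in TI day 4, 1387 and 823 in TD day 10, 994 and 1075 in TD day 4 and 1431 and 1547 in resting at 93810_at. The TD day 10 arrays differed 1.69-fold from each other and spanned both other germinal centre groups. No difference in Ctsd passed. The widest was TD day 4 minus resting, at -0.53 on the log2 scale (95% interval -1.18 to 0.13, adjusted p = 0.33).

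Counted over the 8 tested cathepsin probe sets, 2 were higher and 0 lower in TI day 4 than in TD day 10, where 2.40% of all 7253 probe sets were called (1.20% higher and 1.20% lower). In TD day 10 minus resting 0 were higher and 3 lower, against 10.9% of all probe sets called, 6.45% higher and 4.44% lower. In TI day 4 minus TD day 4 the count was 0 by limma, beside 1.45% of all, with 2 cathepsin probe sets at an unadjusted p under 0.05. In TD day 10 minus TD day 4 it was also 0, with 2 at that level, and 0% of all probe sets passed. TD day 4 minus resting gave 0 calls, with 3 at that level and 9.42% of all called, and TI day 4 minus resting gave 0 calls, with 0 at that level and 9.40% of all called. With 2 arrays in each group, groups without overlap are common over all probe sets. The groups did not overlap at 5 of the 8 cathepsin probe sets in TI day 4 minus TD day 10 (52.8% of all probe sets), 5 in TI day 4 minus TD day 4 (49.4%) and 4 in TD day 10 minus TD day 4 (40.1%). In the comparisons with resting, Ctsb probe set 92256_at read above the floor on the 2 resting arrays alone, at 137 and 91, and so passed the filter through the group where it is high. Without it, the groups did not overlap at 6 of 7 for TI day 4 (48.4% of all probe sets), TD day 10 (49.7%) and TD day 4 (49.8%) against resting, and with it at 7 of 8 in each.

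The median log2 difference of the 8 was 0.18 for TI day 4 minus TD day 4, where all probe sets had -0.01, and 0.39 for TI day 4 minus TD day 10 (all probe sets -0.08). It was -0.47 for TD day 10 minus resting (all probe sets 0.04), -0.45 for TD day 4 minus resting (-0.02) and -0.01 for TI day 4 minus resting (-0.02). For TD day 10 minus TD day 4 it was -0.23 (all probe sets 0.02). Without 92256_at the median for TI day 4 minus resting was 0.15, of the other sign, and those of the other 5 comparisons kept their sign. The 3 comparisons with resting share the same resting arrays, and the comparisons between germinal centre groups share arrays with them. Scaling all arrays to a common median moved the split of all calls in TI day 4 minus TD day 10 to 118 higher and 77 lower, against 87 each as reported, and in TD day 10 minus resting to 364 higher and 392 lower, against 468 and 322.

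By group mean, TD day 10 was the lowest of the 4 groups at 5 of the 8 probe sets and the highest at 0. TI day 4 was the highest at 4 and the lowest at 0, and resting the highest at the other 4. The 8 include 2 probe sets of Ctsb and 3 of Ctse, so they do not stand for 8 genes. For a dim Ctsb and a dim Ctse probe set, some of the ranked means lie under the floor. The share of all probe sets with such ranks was not computed, so these counts are a description only.

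**Figure D2:**
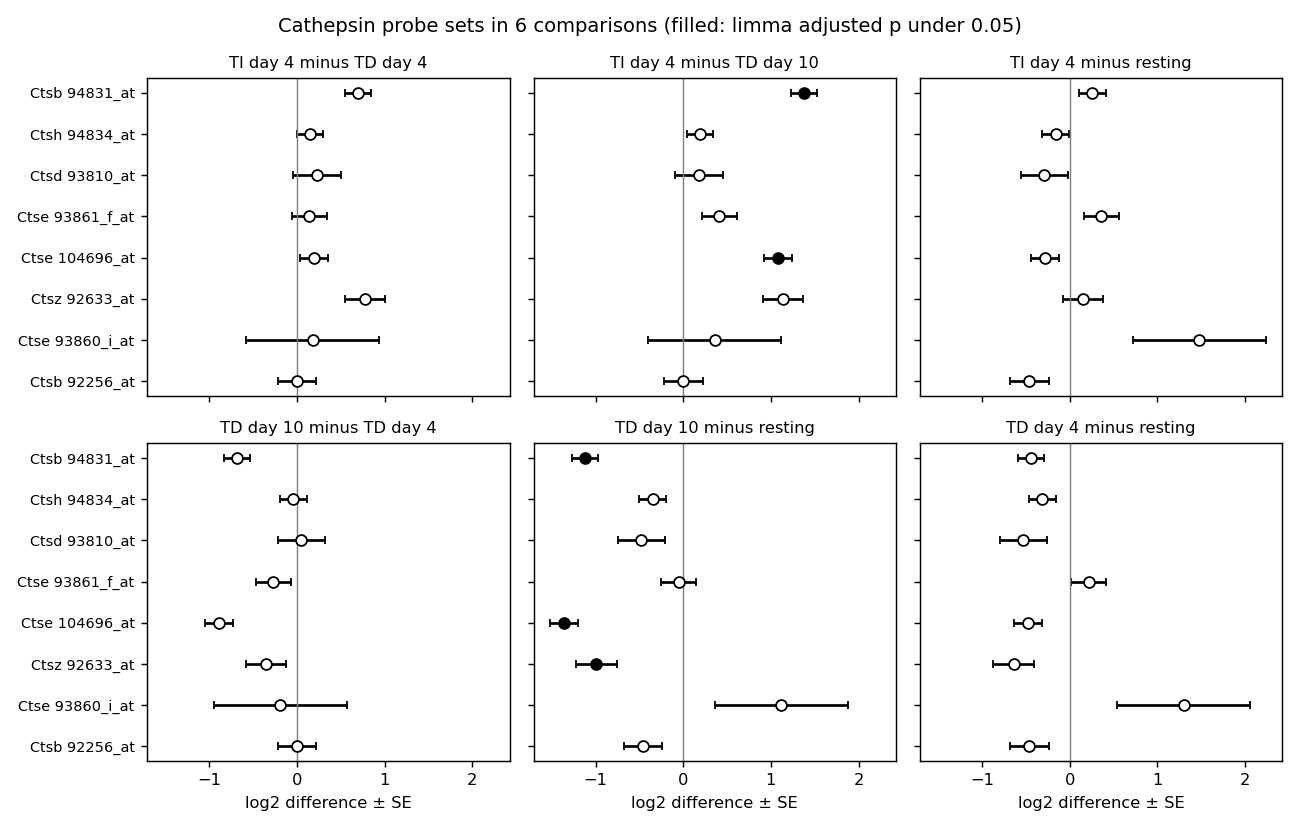
Log2 difference (horizontal axis, bars 1 SE) of the 8 tested cathepsin probe sets in each of 6 comparisons, filled where the limma adjusted p was under 0.05. The filled points are Ctsb and Ctse in TI day 4 minus TD day 10, and Ctsb, Ctse and Ctsz in TD day 10 minus resting.

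Slpi was chosen for its low reading in TI day 4, and at probe set 92858_at it read 130 and 87 in TI day 4, 697 and 1015 in TD day 10, 761 and 912 in TD day 4 and 213 and 163 in resting. Both TD groups lay far above TI day 4 and resting, which lay near the floor. The group means with their SD were 108.5 ± 30.4 for TI day 4, 856 ± 225 for TD day 10, 836.5 ± 107 for TD day 4 and 188 ± 35.4 for resting cells (n = 2 each). On the log2 scale TI day 4 minus TD day 10 was -2.98, TI day 4 minus resting -0.81 and TD day 10 minus TD day 4 0.01, all as a description. Over the alternatives the first ranged from -3.27 to -2.29 and the second from -1.10 to -0.38.

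The comparison of TD day 10 with resting shares no array with the one in which Slpi and Ids were noted and was the only one tested for them. The values of all groups were known when they were chosen, so the p is not independent evidence of a difference at the probe set picked. In TD day 10 minus resting Slpi was 4.51-fold higher at 92858_at (log2 difference 2.17 ± 0.30 SE, adjusted p = 0.0082), where 6.45% of all probe sets were called higher. The adjusted p rose to 0.051 without resting replicate 2 and to 0.055 without TD day 10 replicate 2, where the log2 difference was 1.98 and 1.90. With only the 4 arrays compared, the fit that uses no array of TI day 4 or TD day 4, the adjusted p was 0.068 and the call was lost.

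The other Slpi probe sets did not separate the groups in this way. Probe set 161650_at read 1216 and 1094 in TI day 4, 1639 and 1464 in TD day 10, 1468 and 1484 in TD day 4 and 1473 and 1183 in resting. TI day 4 was again lowest by mean, but its arrays lay 1.34-fold below TD day 10 and 1.28-fold below TD day 4 on average, against 7.91-fold and 7.83-fold at 92858_at. Its TD day 10 minus resting difference was 0.23 on the log2 scale (95% interval -0.20 to 0.66, adjusted p = 0.51). Probe set 162333_r_at read 716 and 595 in TI day 4, 715 and 1254 in TD day 10, 600 and 940 in TD day 4 and 1230 and 994 in resting, with overlap between all 3 germinal centre groups. Its TD day 10 minus resting difference was -0.22 (-1.06 to 0.61, adjusted p = 0.75). Probe set 162329_r_at exceeded the floor on 1 of 8 arrays. Over the 8 arrays the log2 values of 92858_at correlated at 0.85 with 161650_at and at 0.23 with 162333_r_at.

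Ids, chosen in the same way, read 105 and 174 in TI day 4, 873 and 778 in TD day 10, 1176 and 697 in TD day 4 and 891 and 1387 in resting at probe set 99883_g_at. The TI day 4 arrays lay below all others, and the TD day 4 arrays overlapped those of both TD day 10 and resting. The group means with their SD were 139.5 ± 48.8 for TI day 4, 825.5 ± 67.2 for TD day 10, 936.5 ± 339 for TD day 4 and 1139 ± 351 for resting cells (n = 2 each). TI day 4 minus TD day 10 was -2.61 and TI day 4 minus resting -3.04 on the log2 scale, as a description, with ranges over the alternatives of -3.29 to -2.06 and -3.40 to -2.46. In contrast to Slpi, resting B cells were not low at this probe set. TD day 10 minus resting was -0.43 (95% interval -1.35 to 0.49, adjusted p = 0.56).

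At probe set 99882_at, designed from the same GenBank entry, Ids read 97 and 85 in TI day 4, 109 and 151 in TD day 10, 109 and 100 in TD day 4 and 195 and 88 in resting. These values lie just over the floor of 81, so this probe set leaves little room for a lower value in TI day 4. Its TD day 10 minus resting difference was -0.03 (95% interval -0.96 to 0.90, adjusted p = 0.99). The third, 99884_at, lay between -106 and -37 on all arrays. The low reading of Ids in TI day 4 thus rests on 1 of 3 probe sets, and a gap of this size in Slpi on 1 of 4.

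**Figure D3:**
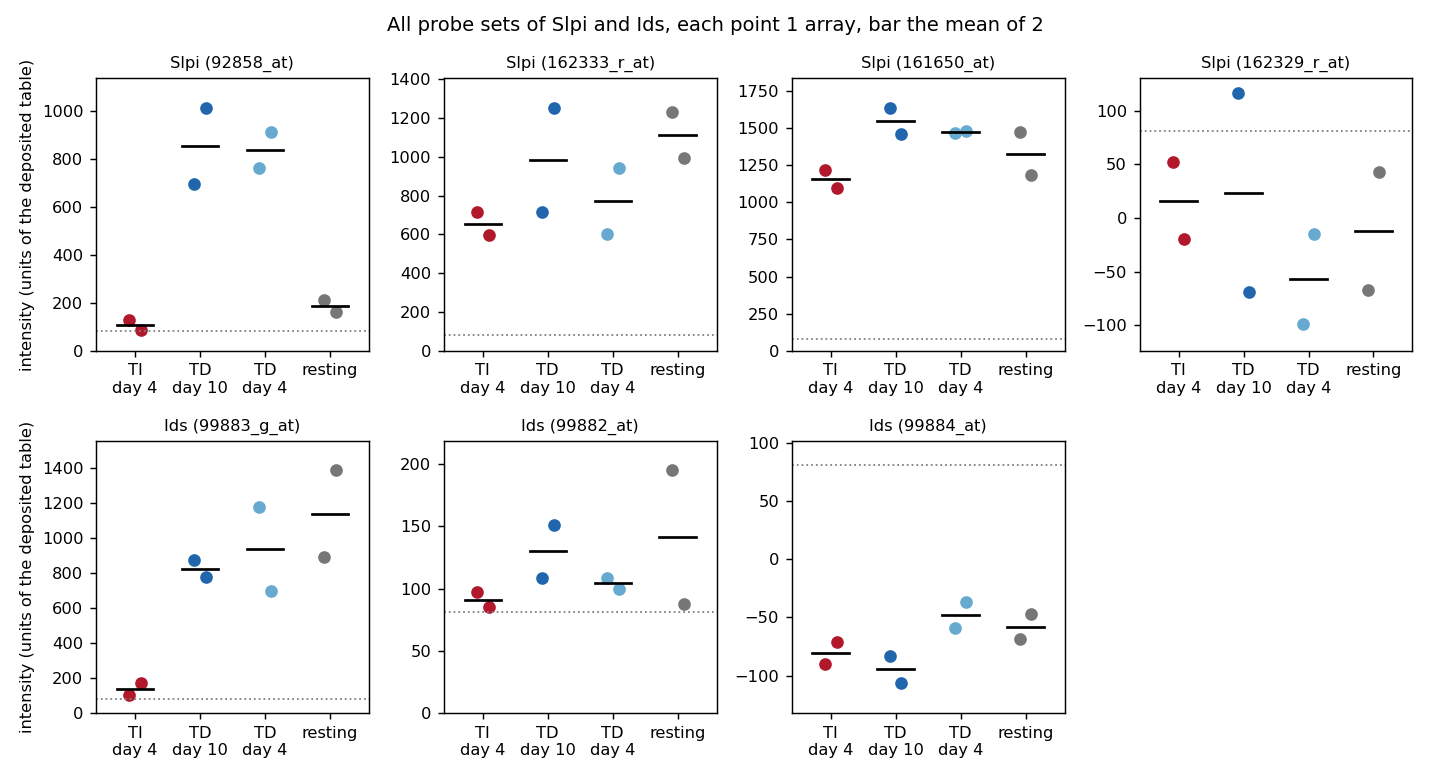
Intensity (vertical axis, deposited units) of all 4 Slpi and all 3 Ids probe sets in the 4 groups, each point 1 array, each bar the mean of 2 arrays, the dotted line the floor of 81. Slpi at 92858_at and Ids at 99883_g_at are low in TI day 4, and only Slpi is also low in resting, while the other probe sets of both genes show no such gap.

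Other lysosomal and related genes were read from 8 lists with 141 genes. Of these, 101 are on the array and 78 were tested, each by its brightest probe set. The 78 include 3 inhibitors of cathepsins and related proteases and 4 serine proteases listed for Slpi, not all of which are lysosomal. In TD day 10 minus resting 0 of the 78 were higher and 14 lower, or 17.9% called, where 6.45% of all probe sets were called higher and 4.44% lower. In TD day 4 minus resting 0 were higher and 12 lower, or 15.4% called, where 5.83% of all probe sets were called higher and 3.58% lower. In TI day 4 minus resting 3 were higher and 5 lower, or 10.3% called, where all probe sets had 5.42% higher and 3.98% lower. The medians of the 78 were -0.23, -0.25 and -0.19 in the same order of comparisons. In TI day 4 minus TD day 10 the count was 1 higher and 0 lower (1.28%, against 2.40% of all probe sets), and in TI day 4 minus TD day 4 it was 0 (1.45% of all). The counts of single lists are to be read against the same shares over all probe sets, and lists of a few genes give coarse ones.

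The other lysosomal proteases had the highest share of calls against resting. Of 8 tested, 1 rose and 2 fell in TI day 4 against resting. In TD day 10 the numbers were 0 and 5, and for TD day 4 they were 0 and 4. Ctss, the protease that removes the invariant chain in B cells, read 1975 and 1849 in TI day 4, 1551 and 1723 in TD day 10, 1577 and 1787 in TD day 4 and 3662 and 4191 in resting. Against resting, its fall was 2.05-fold for TI day 4 (adjusted p = 0.0149), 2.40-fold for TD day 10 (0.00734) and 2.33-fold for TD day 4 (0.00958). Ctss thus fell in all 3 germinal centre groups, whereas for Ctsb no fall was called in TI day 4 or TD day 4. Ctsc, a dipeptidyl peptidase that activates granule serine proteases, fell in each germinal centre group too, by 1.91-fold in TD day 10 (adjusted p = 0.0266). The aspartic protease Napsa read 2909 and 3361 in TI day 4, 1395 and 1727 in TD day 10, 1723 and 2283 in TD day 4 and 5299 and 5508 in resting, a fall of 3.48-fold in TD day 10 (adjusted p = 0.00537) and 2.72-fold in TD day 4 (adjusted p = 0.0118). Lgmn, the asparaginyl endopeptidase, moved otherwise and was 1.69-fold higher in TI day 4 than in resting, at 1045 and 1129 against 711 and 578 (adjusted p = 0.0421).

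Of the inhibitors of cysteine cathepsins and related proteases, 3 were tested. Cst3, which encodes cystatin C, read 1944 and 1720 in TI day 4, 878 and 1035 in TD day 10, 910 and 963 in TD day 4 and 1721 and 1587 in resting. It was 1.92-fold higher in TI day 4 than in TD day 10 (adjusted p = 0.0499) and 1.73-fold lower in TD day 10 than in resting (adjusted p = 0.0336). TI day 4 and resting lay together above both TD groups, as for Ctsz. Cstb, a cytosolic cystatin, did not pass in any comparison.

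Among 5 tested sulfatases and other enzymes of glycosaminoglycan breakdown, which act beside Ids, Gusb (beta-glucuronidase) was 2.25-fold higher in TI day 4 than in resting, at 262 and 310 against 129 and 124 (adjusted p = 0.0198). Hexa, a subunit of beta-hexosaminidase, was 3.06-fold lower in TD day 10 than in resting (adjusted p = 0.019) and 2.95-fold lower in TD day 4 (adjusted p = 0.023). No member of this list differed between TI day 4 and either TD group by the adjusted test. Of 14 other hydrolases and their activators 0 rose against resting, and 5 fell in TD day 10, 3 fell in TD day 4 and 2 fell in TI day 4. Gm2a, the activator of ganglioside breakdown, read 448 and 1038 in TI day 4, 276 and 281 in TD day 10, 345 and 453 in TD day 4 and 2992 and 2503 in resting, a fall of 9.83-fold in TD day 10 (adjusted p = 0.00561). Acp5, an acid phosphatase, fell by 3.08-fold (adjusted p = 0.00289) and Psap, the precursor of the saposins, by 3.22-fold in TD day 10 (adjusted p = 0.0109).

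The membrane and acidification genes had fewer calls. Of 15 membrane proteins and transporters 0 passed in TD day 10 and in TI day 4 and 1, Sidt2, fell in TD day 4 by 3.05-fold (adjusted p = 0.0209), and Lamp1, a major membrane glycoprotein of lysosomes, did not pass. At an unadjusted p under 0.05 there were 4 in TD day 10 and 3 in TI day 4. Of 15 subunits of the proton pump 2 fell in TD day 10, 2 fell in TD day 4 and 1 fell in TI day 4, with Atp6ap1 lower in all 3, by 3.05-fold in TD day 10 (adjusted p = 0.0113). Of 14 genes of sorting to the lysosome 1 rose in TI day 4, the adaptor subunit Ap3m1, which read 240 and 222 there and 66 and 84 in resting, 1 of them under the floor, or at least 2.80-fold (adjusted p = 0.00991). Of 4 tested serine proteases that Slpi inhibits or that are related to those, 0 passed in any comparison by limma and 0 had an unadjusted p under 0.05, and Elane, neutrophil elastase, read between 306 and 347 in TI day 4, 388 and 466 in TD day 10, 306 and 367 in TD day 4 and 284 and 489 in resting.

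**Figure D4:**
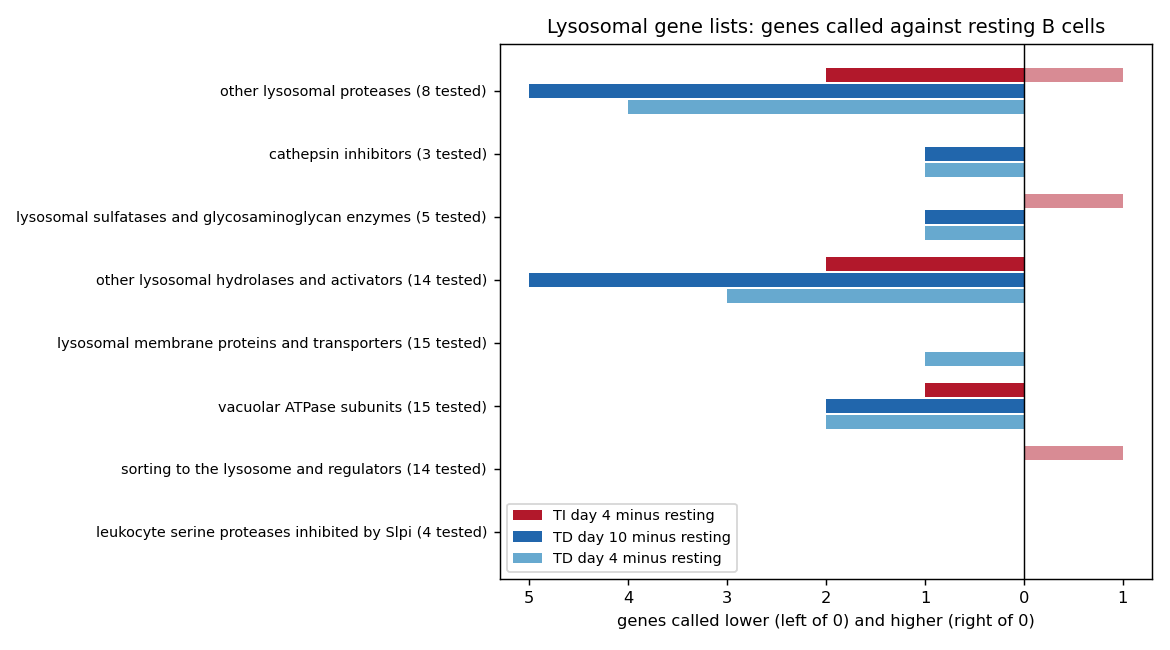
Number of genes (horizontal axis) of each of 8 lists of lysosomal and related genes called lower (left of 0) or higher (right of 0, pale) in each germinal centre group against resting B cells. Falls are most numerous among other lysosomal proteases and hydrolases in TD day 10 (5 of 8 and 5 of 14), and rises appear in TI day 4 alone, 1 in each of 3 lists.

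Several other measures differed between the same groups. Cathepsins and lysosomal enzymes are abundant in macrophages, and the sum over 16 macrophage markers, given beside Ctsz, was highest in TI day 4, with the TD groups overlapping. Without Apoe, which read 4213 and 3371 in TI day 4, the sum of the other 15 was 5709 and 5189 in TI day 4, 4329 and 4949 in TD day 10, 4112 and 4107 in TD day 4 and 7205 and 6259 in resting. That sum was highest in resting and no longer had the order of Ctsb and Ctsz. Without Hmox1, the brightest of the 16, and with Apoe kept, the order of group means stayed that of Ctsb and Ctsz. The sum was then 8139 and 7196 in TI day 4, 3175 and 4005 in TD day 10, 4235 and 3914 in TD day 4 and 5586 and 5491 in resting. The order thus depends on which marker is left out. Of 12 tested macrophage markers 1 was higher in TI day 4 than in TD day 10 (Apoe), where 1.20% of all probe sets were called higher. In TD day 10 against resting 0 rose and 3 fell, where 6.45% of all probe sets were called higher and 4.44% lower. Adgre1, Mrc1, Marco and Spic were under the floor on all 8 arrays, and Lyz2, the macrophage and neutrophil lysozyme, on all germinal centre arrays. Of the markers named by smallest p, C1qb, Cd14 and Csf1r had, like Apoe, their highest group mean in TI day 4. C1qa, C1qc, Vcam1 and Lyz2 had theirs in resting. C1qb read 871 and 1066 in TI day 4 and 776 and 700 in resting, and C1qa 130 and -13 in TI day 4 and 708 and 597 in resting. Neutrophil markers, which bear on Slpi and Elane, summed to 2838 and 3757 in TI day 4, 3250 and 3578 in TD day 10, 2699 and 2738 in TD day 4 and 7516 and 7824 in resting. Of 11 tested neutrophil markers 0 were called between TI day 4 and either TD group, where 2.40% (TD day 10) and 1.45% (TD day 4) of all probe sets were called.

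Plasma cell markers summed to 10289 and 13728 in TI day 4, 2844 and 3584 in TD day 10, 3502 and 4167 in TD day 4 and 2255 and 2135 in resting. Of these, 2 of 4 tested genes, Jchain and Xbp1, were higher in TI day 4 than in TD day 10, against 1.20% of all probe sets. Red cell markers summed to 2408 and 2884 in TI day 4, 1352 and 989 in TD day 10, 808 and 1169 in TD day 4 and 25570 and 23130 in resting. Of these, Slc4a1, the anion exchanger of red cells, read 1700 and 2317 in TI day 4, 252 and 221 in TD day 10, 363 and 419 in TD day 4 and 724 and 707 in resting. It was 8.41-fold higher in TI day 4 than in TD day 10 (adjusted p = 0.00403) and 5.09-fold higher than in TD day 4 (adjusted p = 0.00993), with the same order of group means as Ctsb. The other 4 tested red cell markers were not called between TI day 4 and either TD group. T cell markers summed to between 583 and 1043 on all arrays and dendritic cell markers to between 1285 and 1880. For the B cell label of the sorts, 10 B cell markers, each above the floor on at least 2 arrays, summed to between 42107 and 64683. Without Cd74, the brightest of them, the sum lay between 24500 and 39407. The Gapdh control probe sets gave a 3′ to 5′ ratio of 1.24 and 1.68 in TI day 4, 0.836 and 0.896 in TD day 10, 0.981 and 0.954 in TD day 4 and 0.867 and 1.59 in resting. The same ratio for actin was 1.59 and 1.91 in TI day 4, 1.24 and 1.36 in TD day 10, 1.48 and 1.33 in TD day 4 and 1.55 and 1.88 in resting. Both ratios had the same order of group means as Ctsb and Ctsz, with the TI day 4 and resting arrays overlapping. The part of other cells and of RNA quality in the cathepsin, Ids and Slpi values was not tested beyond the covariate named above.

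**Figure D5:**
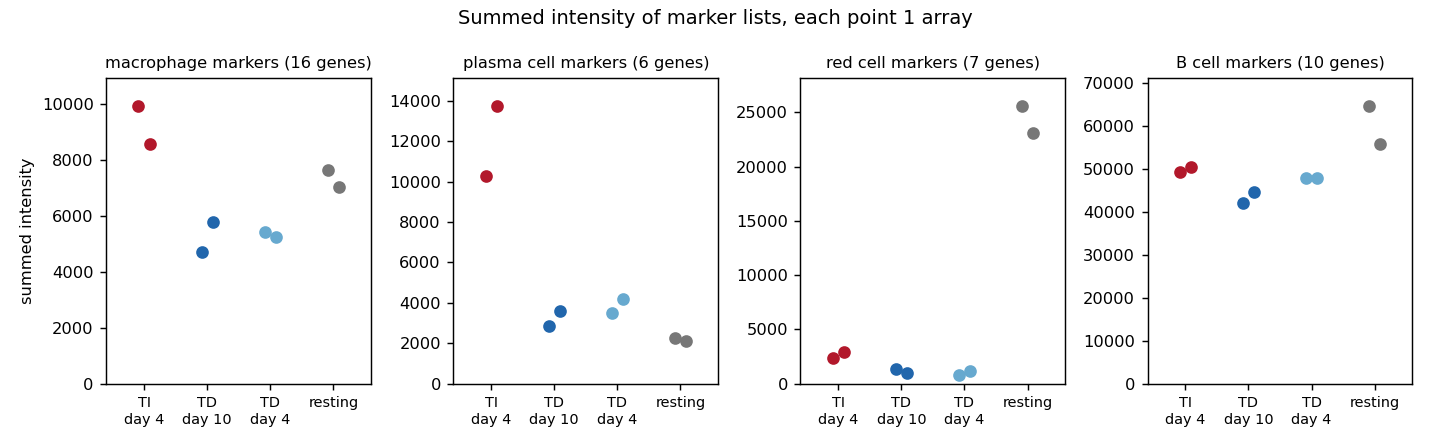
Summed intensity (vertical axis, deposited units, values below 0 counted as 0) of 4 marker lists in the 4 groups, each point 1 array. Macrophage and plasma cell markers are highest in TI day 4, red cell markers in resting, and B cell markers lie between 42107 and 64683 everywhere. Without Apoe, which is included here, the macrophage sum is highest in resting, and without Hmox1, also included, it is highest in TI day 4.

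The probe sets most like each member over the 8 arrays, by the Pearson correlation of log2 values, are given as a description, since arrays of 1 group share their biology. Ctsb at 94831_at was most like Ighm (0.984), Bag6 (0.971) and Mknk2 (0.959), and Ctsz like Aldh2 (0.982), Ly86 (0.976) and Ap1m1 (0.975). Ctsh was most like probe sets named H2-K1 (0.987 and 0.986) and H2-K2 (0.986), genes of MHC class I whose probe sets can share sequence. Ctsd was most like Abca2 (0.968), Map4k4 (0.958) and Gpr19 (0.946), of which Abca2 is itself on the list of lysosomal membrane transporters. Ids at 99883_g_at was most like Serf2 (0.973), Cib1 (0.967) and Dguok (0.965), and Slpi at its brightest probe set, 161650_at, like Spib (0.980), Zfp385a (0.971) and Eif4b (0.970). By Spearman rank correlation Ids was less like them, at 0.810 for Serf2, 0.833 for Cib1 and 0.491 for Dguok. Slpi at 161650_at was too, at 0.833 for Spib, 0.905 for Zfp385a and 0.738 for Eif4b. For the cathepsin pairs named above the rank values lay between 0.833 (Ctsd with Gpr19) and 1.000. For 2 probe sets chosen after their values were seen, Slpi at 92858_at was most like Smarca5 (0.979, Spearman 0.833) and Ctse at 104696_at most like Aldh2 (0.940, Spearman 0.976). The brightest Ctse probe set, 93861_f_at, was most like Ctdsp2 (0.942).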

How the data were processed

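RNA of sorted B cells had been extracted with RNAzol and biotin-labelled by the Affymetrix protocol, per the labels. The deposited intensity values are whole numbers on a linear scale, 30.1% of them at 0 or below, while every array has a mean of 200.2 once its 2% lowest and highest values are trimmed, so the authors' values were read as scaled and background-subtracted. Their software is not given in the sources used here. Array medians lay between 77 and 89. The values were used as deposited. Values under the 50th percentile, 81, were set to it and log2 was taken. Probe sets above it on at least 2 arrays were tested, without 66 control probe sets. A fold whose dimmer side is at the floor is a lower bound.

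A linear model with the 4 groups was fitted to all 8 arrays in limma 3.58.1 (R 4.3.3). It left 4 residual degrees of freedom, and moderation added 2.20. Tests were two-sided, adjusted over 7253 probe sets by Benjamini and Hochberg's method, and called at 0.05. The replicates are biological pools per the labels. Symbols come from the platform annotation, updated through Entrez ID for 10839 of 10855 single-gene probe sets. Members, lists and tests were chosen with earlier results of these data known. Named genes are all members, and of each list the 4 with the smallest p in TI day 4 minus TD day 4 and in TD day 10 minus resting, not all of which the text names. The fit was tested on simulated data. The main fit did not pair arrays by replicate number. Over all tested probe sets the deviations of same-numbered arrays correlated between -0.217 and 0.121, which cannot show whether arrays were processed in pairs. A replicate block was fitted as an alternative. The alternatives were 13 settings and leaving out each of 8 arrays.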

Additional observations from a re-analysis of the deposited data

Results flagged for a closer look

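Against resting B cells, the change of Ctsb at 94831_at differed between TI day 4 (0.26) and TD day 10 (-1.12), and the difference between them, 1.38 on the log2 scale, passed the test (limma adjusted p = 0.012). For Ctse at 104696_at the changes were -0.28 and -1.36, and the difference of 1.08 passed (adjusted p = 0.027). Both were singled out because 2 groups changed unequally from the same resting arrays. The resting arrays cancel in such a difference, so these are the TI day 4 minus TD day 10 results given above and not further ones. The alternatives under which both calls were lost are given there. The groups also differ in day, antigen and adjuvant, which cannot be told apart here.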

How the results depend on the processing

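Over the 6 calls of member probe sets and 21 alternatives, no called value changed its direction. Of 1107 recomputed values of tested members 22 changed sign, all of them uncalled. The count of cathepsin probe sets called in TI day 4 minus TD day 4, 0 as reported, was 1 with a floor at the 60th percentile, 1 with a trended and robust prior and 1 with array weights. In TI day 4 minus TD day 10, 2 as reported, it was 3 with a trended and robust prior and 3 with array weights, 1 with the replicate block, 0 with only the arrays compared and 0 with the Gapdh ratio as a covariate. In TD day 4 minus resting, 0 as reported, it was 2 with a floor at the 60th percentile, and in TD day 10 minus resting, 3 as reported, it was 0 with only the arrays compared, where fewer arrays are fitted. Leaving out each array in turn gave 0 in TI day 4 minus TD day 4 and in TD day 10 minus TD day 4. It gave 0 to 2 in TI day 4 minus TD day 10, 2 to 3 in TD day 10 minus resting and 0 to 1 in TI day 4 and in TD day 4 minus resting. The replicate block ended the Ctse call at 104696_at in TI day 4 minus TD day 10 (adjusted p = 0.058) and the Ctsz call in TD day 10 minus resting (adjusted p = 0.055).

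As a description, TI day 4 minus TD day 4 ranged from -3.26 to -2.28 for Slpi at 92858_at and from -3.28 to -2.18 for Ids at 99883_g_at. Over all probe sets, calls in TI day 4 minus TD day 10 ranged from 0 with only the arrays compared to 292 with array weights (174 as reported), and in TI day 4 minus TD day 4 from 0 to 261 (105 as reported). With only the arrays compared, 100, 118 and 195 were called against resting in TI day 4, TD day 4 and TD day 10 (682, 683 and 790 as reported), and without the filter 14 were called in TD day 10 minus TD day 4. Scaling to a common median shifted the median of TI day 4 minus TD day 10 by 0.10, with the split of calls given above. The cause of these changes was not tested. Intensities near the floor limit Slpi at 92858_at, Ids at 99882_at and 99883_g_at, Ctsb at 92256_at and Ctse at 93860_i_at.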
